A study of Mus musculus with 40 samples.

Results

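The genes described here are 7 genes of resident macrophages and of complement, measured in the bone marrow of mice given cyclophosphamide: C1qa, C1qb, Fcna, Serping1, Adgre1, Siglec1 and Slc40a1. They were chosen by symbol, with earlier results of these data known, as the probes annotated to these names, and each had 1 probe. They make up 7 of the 13027 genes and unnamed probes of the array, and all 7 were among the 5297 that were measured in at least 3 mice of every group and could be tested. Marrow came from 20 mice of the inbred strain DBA/2 in 4 groups of 5. One group was untreated. The mice of the other groups received 83 mg/kg of cyclophosphamide into the abdominal cavity and were sampled 1, 2 or 5 days later. The labels name no mock-injected mice and give no age, and the cells were whole marrow with no sorting step named. RNA of each mouse was amplified, labelled with Cy5 and hybridised on 2 arrays against 1 common Cy3 reference. That reference is labelled as a pool of untreated marrow, although its treatment field names the drug, and it cancels in every difference between groups.

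Each level below is a log2 ratio of mouse over reference, averaged over the 2 arrays of the mouse. Array medians lie close to 0, so a level of 0 means about the ratio of the median probe, not a measured equal amount of RNA. Levels of different genes are not comparable with each other. A fold is the ratio between the means of 2 groups. The adjusted p is that of limma's moderated test, with Benjamini-Hochberg adjustment over all 5297 genes, and a gene was called at an adjusted p under 0.05. An SE is that of the fitted difference, and an SD is the spread between mice.

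Cyclophosphamide is an alkylating drug, converted to its active form in the liver, that kills dividing cells and empties the marrow of most of its forming blood cells for some days. Resident macrophages of the marrow divide little. They hold the centre of the islands in which red cells mature, engulf dying cells and expelled nuclei, and return the iron of old red cells to the blood. Complement is a cascade of plasma proteases that tags microbes and dead cells for uptake. Most complement proteins come from the liver, while C1q is made chiefly by macrophages and related cells.

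C1qa and C1qb encode chains of C1q, the protein that recognises antibody and dying cells and starts the classical pathway. Fcna encodes ficolin A, a lectin that recognises sugars and acetylated surfaces and starts the lectin pathway. Serping1 encodes C1 inhibitor, a serpin that blocks the proteases of both pathways. Adgre1 encodes the surface antigen most used to mark mouse macrophages, an adhesion receptor. Siglec1 encodes CD169 or sialoadhesin, a receptor for sialic acid on resident macrophages. Slc40a1 encodes ferroportin, the exporter through which iron leaves the cell.

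Promoter sequence was available here for Fcna and C1qb, and is shown because both genes, which recognise targets for complement, rose on days 1 and 2. The runs below are the 250 bases before each RefSeq start site in build GRCm38.p6, on the minus strand, for Fcna at chr2:25627975-25628224 and for C1qb at chr4:136886201-136886450. Capitals mark matches to 5 short motifs that were searched on both strands.
Fcna: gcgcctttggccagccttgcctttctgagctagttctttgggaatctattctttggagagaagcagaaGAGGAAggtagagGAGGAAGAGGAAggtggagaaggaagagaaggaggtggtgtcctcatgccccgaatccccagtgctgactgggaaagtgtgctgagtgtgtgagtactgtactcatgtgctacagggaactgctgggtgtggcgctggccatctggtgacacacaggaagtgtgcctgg
C1qb: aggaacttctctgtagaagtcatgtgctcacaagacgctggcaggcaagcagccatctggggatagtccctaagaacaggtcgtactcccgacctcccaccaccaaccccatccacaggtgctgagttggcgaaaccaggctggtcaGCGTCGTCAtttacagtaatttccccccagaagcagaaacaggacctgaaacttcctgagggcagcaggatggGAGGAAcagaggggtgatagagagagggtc

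The Fcna window held 3 copies of GAGGAA, the core bound by the myeloid factor PU.1, which began 182, 169 and 163 bases upstream of the start. The C1qb window held 1 copy of GAGGAA, 30 to 25 bases upstream, and 1 match to the antioxidant response motif TGACNNNGC, 103 to 95 bases upstream on the other strand. No match overlapped another. Of 32851 mouse promoters in the same table, 23.3% held GAGGAA and 10.2% held TGACNNNGC in the same window. The other motifs were GAAANNGAA, found in 7.13% of promoters, TTCNNNGAA in 7.02% and CACGTG in 6.02%, and these letters were not in either window. A match is a run of letters and was not tested for binding. On chromosome 4, C1qb, C1qc and C1qa are neighbours in that order, so the measured C1q genes are parts of 1 cluster.

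The 20 mice had between 4654 and 8284 of the 13443 probes measured, and 40.7% to 69.7% of the values of an array were blank. The 2 arrays of a mouse correlated between 0.68 and 0.96. Control mouse 4 was least like its own group, with a mean correlation of 0.23, and had the fewest probes. Day 2 mouse 5 and day 5 mouse 5 had the lowest agreement between arrays of their groups, at 0.76 and 0.68. Some results that rest on these mice are also given without them. C1qb, Adgre1, Siglec1 and Slc40a1 were measured on all 40 arrays, Fcna and Serping1 in 19 mice, and C1qa in 16 mice on 31 arrays. The SD between the 2 arrays of a mouse lay between 0.0721 for Adgre1 and 0.182 for C1qa.

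On day 2 all 7 genes had risen against the untreated mice, by 1.65 to 2.53 times, and by day 5 all 7 had fallen again from day 2, by 2.07 to 4.20 times. On day 1, 4 of the 7 had risen (C1qb, Fcna, Serping1 and Adgre1). No gene of the 7 was called lower on days 1 or 2, and none was called on day 5 against control. The median change of the 7 was 0.76 on day 1, 1.19 on day 2 and -0.37 on day 5, beside medians of -0.01, -0.02 and 0.01 over all genes tested. Without control mouse 4 and day 2 mouse 5 together, 5 of the 7 had risen on day 1, 7 on day 2, and 7 fell from day 2 to day 5. Marrow RNA is a mixture, so a larger share of the cells that make these RNAs and more of the RNA per cell cannot be told apart. Which cells the RNA came from was not measured.

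**Figure D1:**
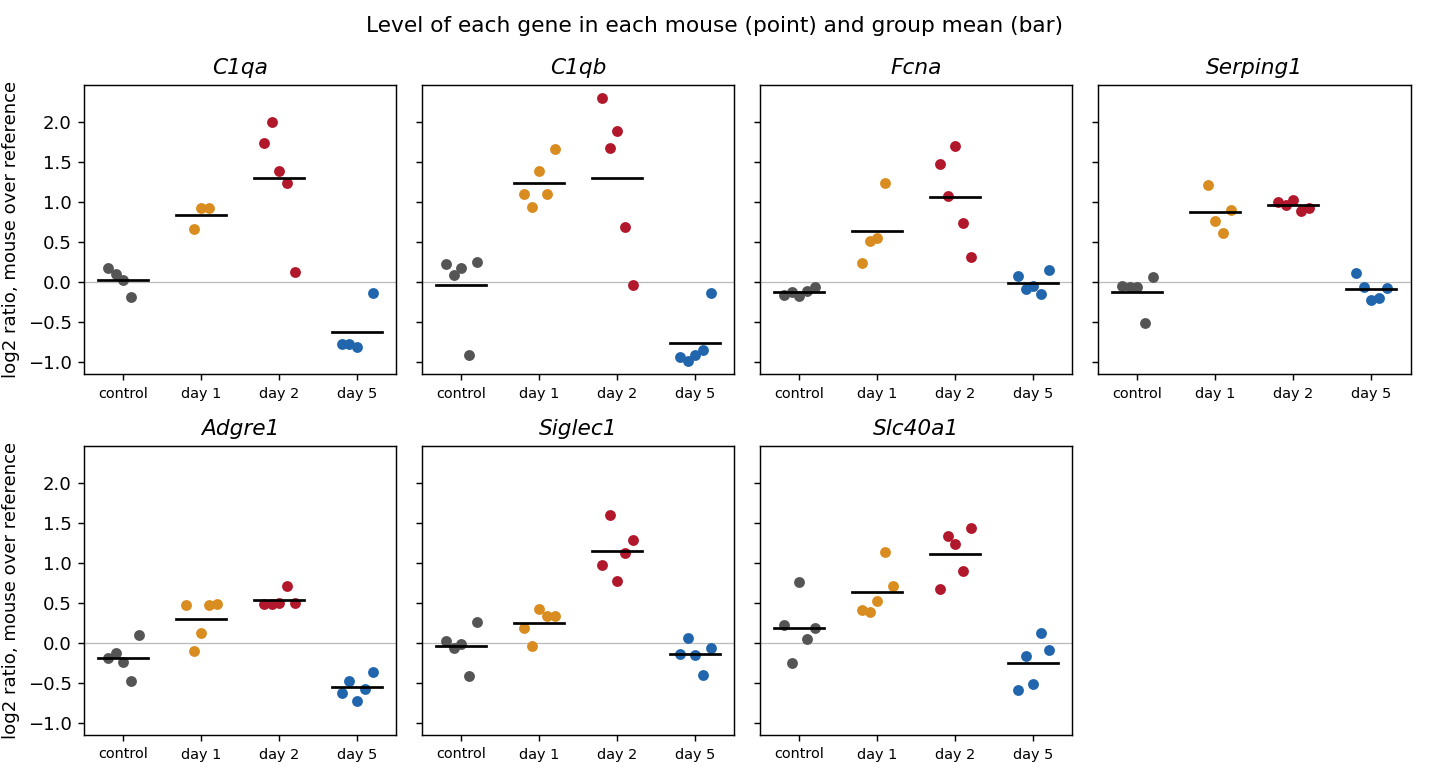
Log2 ratio of mouse over reference (vertical axis) for each of the 7 genes in the control, day 1, day 2 and day 5 mice (horizontal axis). Each point is 1 mouse, the mean of its arrays, and each bar is the group mean. All 7 group means are highest on day 2, and the day 2 and day 5 points do not overlap for any gene.

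Against this, the share of all genes called higher was 10.7% on day 1 and 9.61% on day 2, where 4 and 7 of the 7 were called. The 7 genes were chosen with earlier results of these data known, so the contrast with such shares is no independent evidence. The share called lower on day 5 against day 2 was 10.5%, where 7 of 7 were called. Groups that did not overlap, with every treated mouse above every control mouse, occurred for 6.95% of genes on day 1 and 9.59% on day 2. The 7 genes met this in 4 cases on day 1 (C1qa, C1qb, Fcna and Serping1) and in 4 cases on day 2 (Fcna, Serping1, Adgre1 and Siglec1). Every day 5 mouse lay below every day 2 mouse for 7 of 7 genes, and for 9.27% of all genes. The comparisons of day 1 and day 2 share the control mice, and those of day 2 with control and of day 5 with day 2 share the day 2 mice, so they are not independent of each other.

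C1qb, the B chain of C1q, stood at 0.23, 0.09, 0.18, -0.91 and 0.25 in control mice 1 to 5. On day 1 its levels were 1.11, 0.94, 1.39, 1.11 and 1.67, and on day 2 they were 2.30, 1.68, 1.89, 0.70 and -0.04. On day 5 they were -0.94, -0.98, -0.91, -0.85 and -0.14. All day 1 mice thus lay above all control mice, while day 2 split into 3 high mice, 1 middle mouse and 1 mouse at the control level. The means were -0.03 ± 0.496 (SD, n = 5), 1.24 ± 0.289, 1.31 ± 0.955 and -0.76 ± 0.354 in control, day 1, day 2 and day 5.

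C1qb rose by 1.28 ± 0.31 (SE) on the log2 scale on day 1, or 2.42-fold, with an adjusted p of 0.00724 in limma. On day 2 it was 1.34 ± 0.31 above control, or 2.53-fold (adjusted p = 0.00458). Days 1 and 2 differed by 0.06, with a 95% interval of -0.58 to 0.71 and an adjusted p of 0.985, an interval wide enough to hold a change in either direction. From day 2 to day 5 C1qb fell by 2.07 ± 0.31 on the log2 scale, or 4.20-fold (adjusted p = 5.34e-05), the largest fall of the 7. Without control mouse 4 the day 1 change was 1.06 (adjusted p = 0.0253) and the day 2 change 1.12 (adjusted p = 0.0184). Without day 2 mouse 5 the day 2 change was 1.67 (adjusted p = 0.000234).

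C1qa, the A chain, was measured in fewer mice. Control mice 1 to 4 had 0.18, 0.10, 0.02 and -0.19, and day 1 mice 2, 3 and 4 had 0.66, 0.93 and 0.92. The 5 mice of day 2 had 1.74, 2.00, 1.39, 1.24 and 0.13. Day 5 mice 1, 2, 3 and 5 had -0.76, -0.77, -0.81 and -0.13. The order of the group means was day 2, day 1, control and day 5, as for C1qb, and the same mice stood apart on days 2 and 5.

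C1qa rose by 1.27 ± 0.25 (SE) on day 2, or 2.41-fold (limma, adjusted p = 0.00211). On day 1 it was 0.81 ± 0.29 above control, or 1.75-fold, an adjusted p of 0.0558 in limma with 3 against 4 mice, although the groups did not overlap. That comparison was called in 8 of 31 alternative settings, among them the fit without day 2 mouse 5 (adjusted p = 0.00598), which narrows the shared SE. From day 2 to day 5 C1qa fell by 1.92 ± 0.25 on the log2 scale, or 3.78-fold (adjusted p = 2.67e-05). The third chain, C1qc, could not be tested because only 2 mice of day 5 were measured. Its median level was 0.06 in 3 control mice, 0.89 in 4 day 1 mice, 1.07 in 3 day 2 mice and -0.30 in those 2 mice.

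Fcna, whose promoter window carried the 3 GAGGAA runs printed above, lay in a narrow band in control mice, at -0.16, -0.12, -0.17, -0.11 and -0.06. Day 1 mice 1 to 4 had 0.24, 0.52, 0.56 and 1.23, and the day 2 mice had 1.48, 1.07, 1.70, 0.75 and 0.32. Day 5 brought 0.08, -0.09, -0.05, -0.15 and 0.16. Every mouse of days 1 and 2 lay above every control and every day 5 mouse, but the treated mice differed widely among themselves. The SD between mice was 0.045 in controls, 0.421 on day 1 and 0.556 on day 2.

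Fcna rose by 0.76 ± 0.21 (SE) on day 1, or 1.70-fold (limma, adjusted p = 0.0132), and by 1.19 ± 0.19 on day 2, or 2.28-fold (adjusted p = 0.000293). The day 1 call rested on mouse 4, the highest, since without it the change was 0.56 with an adjusted p of 0.0503. Day 2 was 0.42 above day 1, with a 95% interval from just below 0 to 0.85 and an adjusted p of 0.379. By day 5 Fcna fell by 1.07 ± 0.19 on the log2 scale, or 2.10-fold (adjusted p = 0.000409). On day 5 Fcna was 0.12 above control, with a 95% interval of -0.28 to 0.52 (adjusted p = 0.928).

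Serping1, the inhibitor, had the smallest spread between mice on day 2. Control mice had -0.04, -0.06, -0.05, -0.51 and 0.07, and day 1 mice 2 to 5 had 1.22, 0.76, 0.62 and 0.90. The day 2 mice had 1.00, 0.96, 1.03, 0.89 and 0.93, an SD of 0.057, and the day 5 mice had 0.12, -0.05, -0.22, -0.19 and -0.08. Levels of both early days lay above all other mice, and those of day 5 overlapped the controls, with 1 mouse above the highest control.

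Serping1 rose by 0.99 ± 0.12 (SE) on day 1, or 1.99-fold (limma, adjusted p = 5.36e-05), and by 1.08 ± 0.12 on day 2, or 2.12-fold (adjusted p = 4.16e-06). Day 2 minus day 1 was 0.09, with a 95% interval of -0.17 to 0.35 (adjusted p = 0.873). It then fell by 1.05 ± 0.12 on the log2 scale to day 5 (adjusted p = 1.59e-06). On day 5 the difference from control was 0.04, with a 95% interval of -0.21 to 0.28 (adjusted p = 0.973), and its sign turned in 6 of 34 alternative settings.

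Adgre1, the adhesion receptor, had the smallest changes of the 7 on day 2. Its control levels were -0.18, -0.12, -0.24, -0.47 and 0.10, and day 1 gave 0.48, -0.10, 0.13, 0.48 and 0.49. On day 2 the mice had 0.49, 0.48, 0.50, 0.72 and 0.50, and on day 5 they had -0.62, -0.47, -0.72, -0.57 and -0.36. On day 1 mouse 2 still lay within the control range, whereas on day 2 every mouse was above it. Day 5 mice lay low, with 1 control mouse among them.

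The rise of Adgre1 was 0.48 ± 0.12 (SE) on day 1, or 1.39-fold (limma, adjusted p = 0.00921), and 0.72 ± 0.12 on day 2, or 1.65-fold (adjusted p = 0.000348). From day 2 to day 5 the gene fell by 1.09 ± 0.12 on the log2 scale, or 2.13-fold (adjusted p = 1.31e-06). On day 5 its difference from control was -0.37 ± 0.12, with an unadjusted p of 0.00589 and an adjusted p of 0.133 in limma.

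Siglec1, the gene of CD169, had risen on day 2 and was not called on day 1. Control mice had 0.03, -0.06, -0.01, -0.41 and 0.26, and day 1 mice had 0.18, -0.03, 0.43, 0.34 and 0.34. The day 2 mice had 0.97, 1.60, 0.78, 1.12 and 1.28, and the day 5 mice had -0.14, 0.06, -0.15, -0.40 and -0.06. Day 1 and control overlapped, and all day 2 mice lay above all others.

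On day 1 Siglec1 was 0.29 ± 0.14 (SE) above control, a difference that was not called (limma, adjusted p = 0.15). On day 2 it had risen by 1.19 ± 0.14, or 2.28-fold (adjusted p = 8.11e-06). Day 2 exceeded day 1 by 0.90 ± 0.14, or 1.86-fold (adjusted p = 0.000748). Siglec1 was the only one of the 7 called in that comparison, where 1.36% of all genes were called higher, and the only one whose groups did not overlap, as for 2.36% of all genes. Without day 2 mouse 5, C1qa was called too, with day 2 higher than day 1 by 0.76 (adjusted p = 0.0373). Whether the step from day 1 to day 2 differed between the genes was not tested. From day 2 to day 5 Siglec1 fell by 1.29 ± 0.14 on the log2 scale, or 2.44-fold (adjusted p = 1.05e-06).

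Slc40a1, the iron exporter, had 0.22, -0.25, 0.76, 0.05 and 0.19 in control mice. Day 1 mice had 0.41, 0.39, 0.53, 1.14 and 0.71, day 2 mice had 0.68, 1.34, 1.24, 0.89 and 1.44, and day 5 mice had -0.59, -0.16, -0.51, 0.12 and -0.09. Control mouse 3 was higher than several treated mice, so that controls overlapped with days 1 and 2. The group means rose from 0.19 in controls to 0.64 on day 1 and 1.12 on day 2, and were -0.25 on day 5.

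On day 2 Slc40a1 had risen by 0.92 ± 0.18 (SE), or 1.90-fold (limma, adjusted p = 0.00144). The day 1 difference of 0.45 ± 0.18 was not called (adjusted p = 0.0898), but it was without control mouse 3, and with array weights or all 40 arrays in the fit. From day 2 to day 5 the gene fell by 1.36 ± 0.18 on the log2 scale, or 2.57-fold (adjusted p = 1.36e-05).

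**Figure D2:**
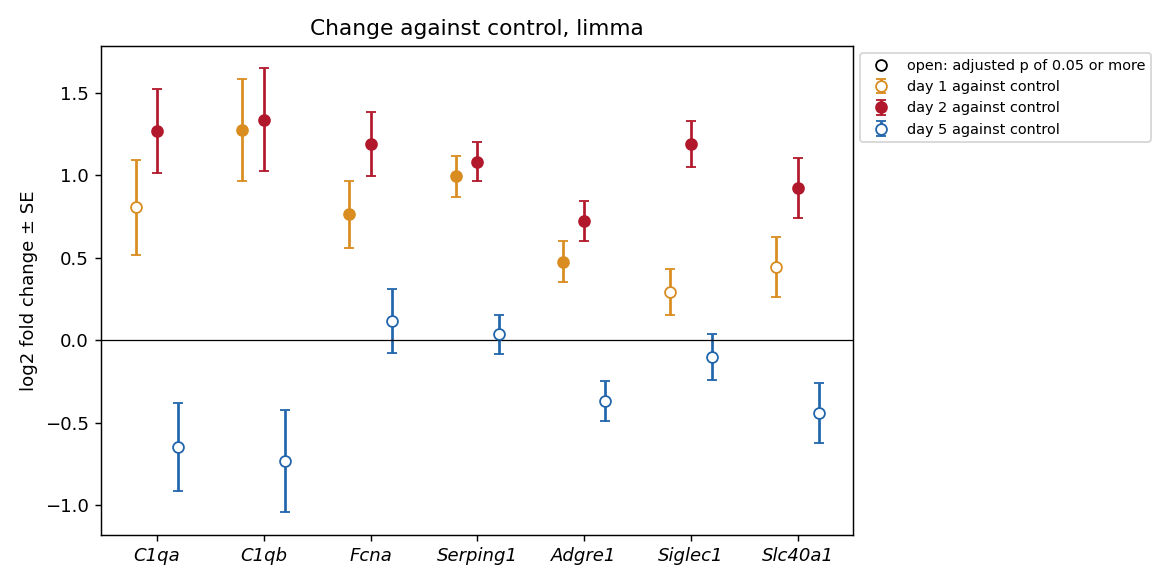
Log2 fold change against control (vertical axis) of the 7 genes on day 1, day 2 and day 5, from limma, with bars of 1 SE. Filled points have an adjusted p under 0.05 and open points do not. All 7 are filled on day 2, 4 on day 1 and none on day 5.

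On day 5 none of the 7 genes passed the test against control. Against control, C1qa was at -0.65 ± 0.27 (SE) on the log2 scale, C1qb at -0.73 ± 0.31, Slc40a1 at -0.44 ± 0.18 and Adgre1 at -0.37 ± 0.12. Siglec1 was at -0.10 ± 0.14, and Fcna and Serping1 lay slightly above control. In limma the adjusted p was 0.317, 0.339, 0.317 and 0.133 for the first 4, so none of the 7 was called, where 1.72% of all genes were called lower. The unadjusted p was under 0.05 for those 4, and for 583 of the 5297 genes, or 11%.

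No gene of the 7 had all day 5 mice below all control mice, which 3.21% of genes had. The call on day 5 depended on the mice and the fit. Without day 2 mouse 5, whose spread enters the shared SE, C1qa was called lower (adjusted p = 0.0447). Without that mouse and control mouse 4 together, C1qa and C1qb were both called (adjusted p = 0.0476 and 0.0304). With array weights, C1qa, C1qb and Adgre1 were called.

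The mice of day 2 did not have the same profile across the genes. Day 2 mouse 5 was the lowest of its group for C1qa, C1qb and Fcna, at 0.13, -0.04 and 0.32, and both of its arrays were low, with C1qb at 0.05 and -0.12. The same mouse was the highest of the 5 for Slc40a1, at 1.44, and the second highest for Siglec1, at 1.28. For Serping1 it had 0.93 and for Adgre1 0.50, amid the other mice. The C1q chains were thus at the control level in a mouse whose Siglec1, Serping1, Adgre1 and Slc40a1 were as high as in its group.

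**Figure D3:**
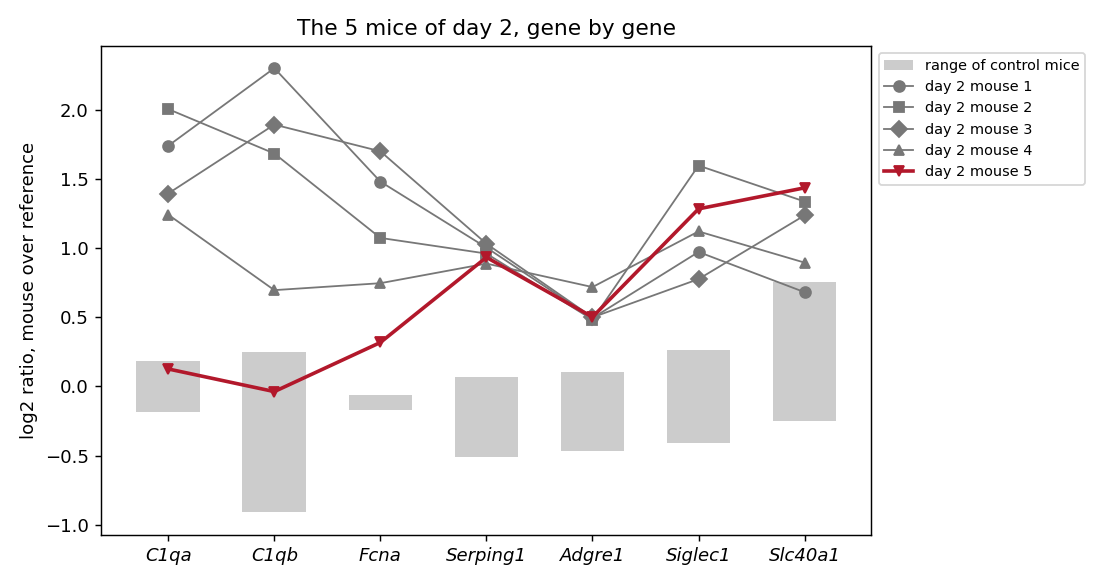
Log2 ratio of mouse over reference (vertical axis) of each of the 7 genes (horizontal axis) in the 5 day 2 mice, with 1 line per mouse and the range of the control mice as a grey box. The red line, day 2 mouse 5, lies inside the control range for C1qa and C1qb, above it but lowest of the 5 for Fcna, highest of the 5 for Slc40a1, and among the other mice for Serping1, Adgre1 and Siglec1.

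Covariation between mice was read from deviations of each mouse from its group mean, for all 21 pairs of the 7 genes. C1qa and C1qb varied together, with Pearson's r of 0.85 (permutation within groups, p = 0.00208, adjusted p = 0.0437) and Spearman's rho of 0.89 (p = 0.00054, adjusted p = 0.0113) over 16 mice. The value was 0.84 without the 2 mice farthest from the median and 0.85 without day 2. C1qb and Fcna had r = 0.67 and rho = 0.60 over 19 mice (permutation p = 0.0177 and 0.0228, adjusted 0.186 and 0.239). That value dropped to 0.41 without day 2 mice 5 and 1, and to 0.11 without day 2, and so rested on those mice. None of the other 19 pairs passed the adjusted threshold either. C1qb and Siglec1, for example, had r = 0.10 and rho = 0.14 (permutation p = 0.77 and 0.61, adjusted 0.948 and 0.907), with r = 0.39 when day 2 mice 5 and 1 were left out and 0.65 without day 2, so the low value rested on the day 2 mice. Without day 2, r was also 0.70 for C1qa and Adgre1, 0.60 for C1qb and Adgre1, and 0.65 for Adgre1 and Siglec1, values that were not tested.

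Among the other genes that start complement, the list held 16 genes, of which 7 could be tested, and 4 of these were not among the 7 genes described so far. Mbl1, a mannose-binding lectin that starts the lectin pathway, rose by 0.72 ± 0.17 (SE) on day 1 (limma, adjusted p = 0.00711) and by 0.75 ± 0.17 on day 2 (adjusted p = 0.00454). It fell by 0.84 ± 0.17 on the log2 scale from day 2 to day 5 (adjusted p = 0.00123) and was -0.09 from control on day 5. Masp2, the protease that acts with lectins and ficolins, was 0.45 ± 0.16 above control on day 1 without being called (adjusted p = 0.0571). Masp1 and C1ra, also proteases of these pathways, lay within 0.16 of control on days 1 and 2. The median of these 4 was 0.21 on day 1 and 0.14 on day 2.

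The later steps of the cascade gave less to read. Of 11 genes of the alternative and terminal steps 2 could be tested, C8g and C9, parts of the pore that opens membranes, and neither was called in any comparison. Of 12 regulators only Serping1 could be tested. Clu, another regulator, was measured in only 2 day 1 mice, at a median of 0.34. Its median was -0.15 in 3 control, 1.06 in 4 day 2 and 0.66 in 4 day 5 mice. Of 11 receptors and binding partners 4 were tested, and the anaphylatoxin receptors C3ar1 and C5ar1 and the surface protein Cd93 were not called in any comparison. Calr, a chaperone that can bind C1q at the surface of dying cells, was -0.04 from control on day 1 and rose by 0.54 ± 0.12 on day 2 (limma, adjusted p = 0.00408).

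**Figure D4:**
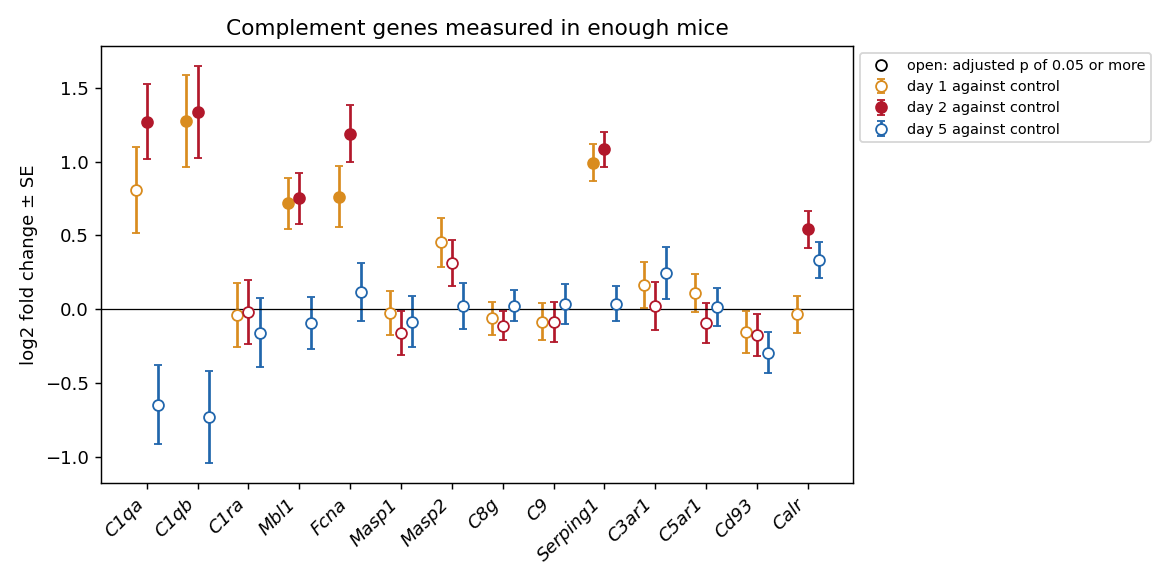
Log2 fold change against control (vertical axis, bars of 1 SE, limma) of the 14 complement genes that could be tested, on day 1, day 2 and day 5. Filled points have an adjusted p under 0.05. Besides C1qa, C1qb, Fcna and Serping1, the genes with a filled point are Mbl1 on days 1 and 2 and Calr on day 2.

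Iron recycling was followed with 26 genes, of which 8 could be tested and 7 were not Slc40a1. Ftl1, the light chain of the iron store ferritin, rose by 0.60 ± 0.19 (SE) on day 1 and 0.62 ± 0.16 on day 2 (limma, adjusted p = 0.0303 and 0.012) and fell by 0.74 ± 0.16 on the log2 scale from day 2 to day 5 (adjusted p = 0.00274). Ncoa4, which delivers ferritin for breakdown, rose by 0.55 ± 0.18 on day 1 (adjusted p = 0.0311) and was lower than control on day 2, at -0.50 ± 0.18 (adjusted p = 0.0462). Fth1, the heavy chain, was -0.06 and -0.17 from control on days 1 and 2 and was not called. Hamp, the gene of hepcidin, the hormone that removes ferroportin from the surface, was 0.29 above control on day 1 (adjusted p = 0.057). The median change of the 7 was 0.12 on day 1 and 0.04 on day 2, and no gene of the 8 was called on day 5.

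Relatives of Siglec1 and Adgre1 were 4 tested genes. Cd22, a siglec of B cells, rose by 0.52 ± 0.13 on day 1 (limma, adjusted p = 0.00928) and 0.38 ± 0.13 on day 2 (adjusted p = 0.0465). It was the only one of the 4 called on day 5, at -0.99 ± 0.13 from control (adjusted p = 5.17e-05). Siglece, Adgre5 and Adgrg1 were not called in any of the 5 comparisons.

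Siglec1 is also known as a gene induced by interferon. Of 28 other interferon-stimulated genes 8 could be tested, and none was called higher on days 1, 2 or 5. On day 2 Tap1 and Irf9, a peptide transporter and a transcription factor, were lower by limma, at -0.67 ± 0.14 (adjusted p = 0.002) and -0.64 ± 0.15 (adjusted p = 0.00517). On day 5 Rtp4, Gbp2, Tap1 and Irf9 were all lower, with Rtp4 at -1.99 ± 0.18 (adjusted p = 1.23e-07).

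Growth and identity factors of macrophages came to 4 tested genes of 22: Csf1, Il34, Id3 and Csf2ra. None was called in any comparison. The changes of Csf1, the main macrophage growth factor, lay between -0.05 and -0.02 against control, with 3 mice measured in each group. Another 14 had values in too few mice. Among these, Pparg had a median of -0.001 in 3 control, 0.80 in 4 day 1, 0.70 in 4 day 2 and 0.30 in 1 day 5 mouse. Mitf had -0.29, -0.38, -0.32 and -0.20 in 4, 4, 3 and 2 mice. Of 27 genes for the clearance of dying cells 6 were tested and none was called on day 1. On day 2 Anxa1, an anti-inflammatory protein abundant in neutrophils, was at -1.10 ± 0.27 (limma, adjusted p = 0.00645), and Rac1, a GTPase of engulfment, at -0.31 ± 0.11 (adjusted p = 0.0432). Itgav, an integrin of the same list, was 0.76 ± 0.30 above control on day 2 without being called (adjusted p = 0.0829). The median change of the 6 on day 2 was 0.01.

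The label of the 7 genes could not be checked against independent markers. Of 23 macrophage markers 16 were on the array and 6 could be tested, of which 5 belong to the 7 genes. The other, Clec4n, a C-type lectin receptor, was 0.16 and 0.25 above control on days 1 and 2 and was not called. Another 10, among them Mertk, Cd163, Vcam1 and Spic, had values in too few mice, and Mertk had none in any mouse. Cd163 had a median of 0.10 in 2 control, 0.47 in 2 day 2 and 0.60 in 1 day 5 mouse. Cd5l stood at -0.14, 0.44 and 0.51 in 1 mouse of each of these groups. Mrc1 had 0.09, 0.16 and 0.08 in 2, 2 and 1 mice. C1qc, given above, was below control on day 5, which Cd163 and Cd5l were not. The mean level of the 6 tested markers ran from -0.39 to 0.18 in control mice, 0.42 to 0.75 on day 1, 0.59 to 1.29 on day 2 and -0.48 to -0.09 on day 5. Mean levels here and below leave out any marker not measured in the mouse, so mice can differ in the markers averaged.

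Markers of other cells moved on the same days. Of 6 neutrophil markers 4 were lower on day 2 (Ltf, Cd177, Ngp and S100a9), with Ltf, a granule protein, at -1.96 ± 0.19 (limma, adjusted p = 1.39e-06). These 4 rose from day 2 to day 5, Ltf by 2.13 ± 0.19 (adjusted p = 9.1e-08). Csf3r, the receptor for a neutrophil growth factor in the same list, rose by 0.41 ± 0.14 on day 1 (adjusted p = 0.0414), was 0.28 above control on day 2 without being called, and fell by 0.85 ± 0.14 on the log2 scale from day 2 to day 5 (adjusted p = 0.000144). The mean neutrophil level ran from -0.10 to 0.21 in control mice and from -1.27 to -0.87 on day 2. Of 7 erythroid markers 3 were lower on day 2 (Kel, Ank1 and Rhd), with mean levels from -0.48 to -0.23 in controls and -0.85 to -0.63 on day 2. Alas2, the enzyme that starts haem synthesis in red cells, was the only erythroid marker called on day 1, 1.36 ± 0.21 above control (adjusted p = 0.000474), and on day 2 it was at 0.58 (adjusted p = 0.06) and Hba-a1, a globin, at 0.33 (adjusted p = 0.417). Of 4 B cell markers Vpreb1 and Vpreb3 were lower on day 2, and the mean level ran from -0.07 to 0.28 in controls and -0.89 to -0.55 on day 2.

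Some markers of vessel and stromal cells were also higher on the early days. Of 5 endothelial markers 2 were higher on day 1 (Plvap and Flt1) and 3 on day 2, when Kdr was called too, and Plvap, a protein of sinusoid walls, rose by 0.93 ± 0.20 (limma, adjusted p = 0.00227). Their mean level ran from -0.14 to 0.01 in control mice and from 0.33 to 0.57 on day 2. Cdh5 and Tek, at 0.14 and 0.12 on day 2, were not called on either day. Of 4 stromal markers 3 were higher on day 1 (Fstl1, Adipoq and Dcn) and 3 on day 2, with Fstl1 at 0.92 ± 0.12 (adjusted p = 1.51e-05), Adipoq, a fat cell hormone, at 0.82 ± 0.14 (adjusted p = 0.000523) and Cxcl12, the chemokine that holds stem cells, at 0.99 ± 0.31 (adjusted p = 0.0263). Dcn, at 0.28 on day 2, was not called then (adjusted p = 0.0994). Mean stromal levels ran from -0.25 to -0.01 in controls and from 0.22 to 0.91 on day 2. Of 4 megakaryocyte markers 2 rose on day 2, Itga2b and Ppbp. Pf4 and Treml1, at 0.55 and 0.31 on day 2, were not called (limma, adjusted p = 0.158 and 0.157). The endothelial and stromal lists had no gene called on day 5 against control. From day 2 to day 5, 3 of the 5 endothelial markers fell (Plvap, Flt1 and Kdr), with Plvap at -1.005 ± 0.18 (limma, adjusted p = 0.000473). Of the 4 stromal markers 3 fell over the same days (Fstl1, Adipoq and Cxcl12), with Fstl1 at -0.97 ± 0.12 (adjusted p = 3.24e-06).

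Of 13 monocyte markers 3 could be tested, and these did not move alike. F13a1 and Ms4a6c were lower on day 1, at -0.90 ± 0.11 and -0.61 ± 0.14 (limma, adjusted p = 2.75e-05 and 0.00564), and higher on day 5, at 0.84 ± 0.11 and 0.62 ± 0.14 (adjusted p = 2.39e-05 and 0.0143). Cybb was lower on day 2, at -1.11 ± 0.23 (adjusted p = 0.00212), and was not called on days 1 and 5 (adjusted p = 0.281 and 0.969). F13a1 and Ms4a6c were not called on day 2 (limma, adjusted p = 0.217 and 0.26). The mean monocyte level ran from -0.21 to 0.53 in control mice, -0.69 to -0.26 on day 1, -0.61 to -0.11 on day 2 and 0.61 to 0.77 on day 5. How these marker changes relate to the changes of the 7 genes was not tested.

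**Figure D5:**
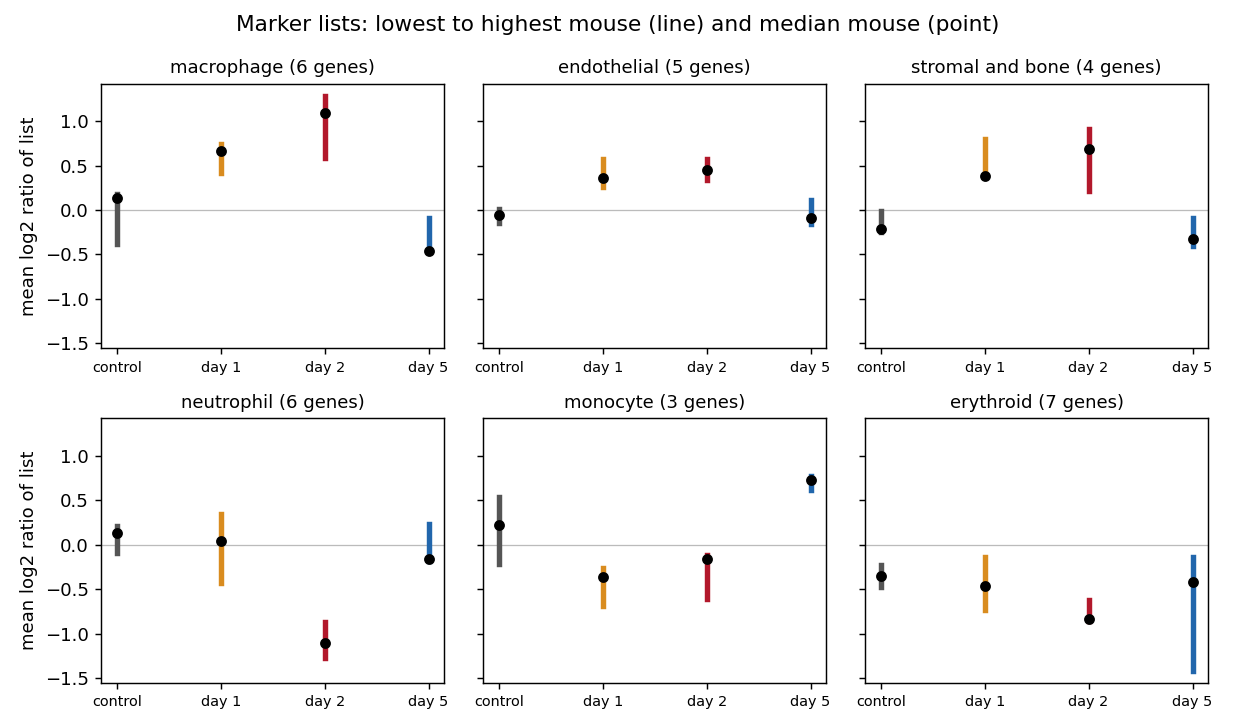
Mean log2 ratio over the tested markers of 6 cell types (vertical axis) in control, day 1, day 2 and day 5 mice, where the line runs from the lowest to the highest mouse and the point is the median mouse. A marker not measured in a mouse is left out of its mean, so mice can differ in the markers averaged. Macrophage, endothelial and stromal levels are above all control mice on day 2, neutrophil and erythroid levels are below all control mice, and monocyte levels are highest on day 5. The macrophage panel holds 5 of the 7 genes.

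Among 2250 named genes measured in all 20 mice, those with the level most like the mean of the 7 were Bhmt2 (r = 0.88), Frmd4b (0.87), Fstl1 (0.86), Slc37a2 (0.85), Fhl1 (0.85) and F2rl3 (0.84). The 20 points share the 4 groups, so a gene with the same group means scores high whatever its mice do. After the group means were removed the values were 0.31 for Bhmt2, 0.40 for Frmd4b, -0.08 for Fstl1, 0.42 for Slc37a2, 0.12 for Fhl1 and 0.17 for F2rl3. Slc37a2, a sugar phosphate transporter, rose by 0.66 ± 0.12 on day 1 and 0.53 ± 0.12 on day 2 (limma, adjusted p = 0.000873 and 0.00365).

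Gene by gene, the nearest neighbours differed. Fcna was most like Frmd4b (r = 0.94, and 0.83 without the group means, over 19 mice), which rose by 0.78 ± 0.14 on day 2 (limma, adjusted p = 0.000782). C1qb was most like Col8a1, a collagen (0.89, and 0.73 without the group means), and Slc37a2 (0.88). C1qa was most like Frmd4b and Il1b (both 0.85, over 16 mice), and Il1b, an inflammatory cytokine, was higher by 0.91 ± 0.30 on day 2 (adjusted p = 0.0373), or by 1.45 ± 0.28 (adjusted p = 0.00137) in its 1 probe that was measured in enough mice to be tested alone. Serping1 was most like Fstl1 (0.96, and 0.59 without the group means) and Homer3 (0.94), over 19 mice. Adgre1 was most like Gimap3 (0.91) and Fstl1 (0.84), Siglec1 like Meis1 and Pomgnt1 (both 0.84), and Slc40a1 like Ppbp (0.83) and Ipo11 (0.81). These correlations describe the 20 mice and carry no test.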

How the data were processed

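The authors deposited 1 log2 ratio of Cy5 over Cy3 per probe and array, for 40 arrays, with the base 2 taken here and not stated in the labels. Array medians lie within 0.0151 of 0. For the scanner, background correction, normalization and rule for blanks, the sources used here give nothing. Only ratios are given, so signal over background is unknown, and the number of mice limits the precision. Of 13443 probes, 10032 had 1 gene symbol in the platform annotation, 170 several and 3241 no entry, and 10028 symbols matched RefSeq. The 2 arrays of a mouse were averaged, then the probes of a gene. Of 13027 genes and unnamed probes, 5297 with at least 3 mice in every group were tested (limma 3.58.1, R 4.3.3, all 20 mice, 1 mean per group). The fit was tested on simulated data. Mice are numbered within groups by the labels, which call them independently harvested. The 7 genes and the gene lists were chosen with earlier results of these data known. From the lists described, in each comparison, the text draws on up to 4 called genes with the smallest p or, with none called, the 1 with the smallest p. Genes named beyond these were chosen after their values were seen. Lists of granulocyte precursor, T and NK cell, osteoclast and dendritic cell markers were also run and are not described. They held called genes in both directions, such as Ccr9, higher on day 2, and Prtn3, lower on day 1. Alternatives covered arrays, blanks, normalization, the fit and each mouse left out. Correlations used 100000 permutations within groups.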

Additional observations from a re-analysis of the deposited data

Results flagged for a closer look

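In each group with 4 or 5 measured mice, the gap between the most extreme mouse and its neighbour was set against the whole range of the group (Dixon's criterion at 95%). Of 27 groups of the 7 genes, 5 were marked, and chance marks about 1 group in 20. Control mouse 4 was the low mouse for C1qb, at -0.91 with the next mouse at 0.09, and for Serping1, at -0.51 with the next at -0.06. That Serping1 value rests on 1 array. Day 5 mouse 5 was the high mouse for C1qa, at -0.13 with the next at -0.76, and for C1qb, at -0.14 with the next at -0.85. Its arrays gave 0.26 and -0.52 for C1qa, and -0.01 and -0.26 for C1qb. Day 2 mouse 4 was the high mouse for Adgre1, at 0.72 with the next at 0.50. Day 2 mouse 5, low for C1qa, C1qb and Fcna, was not marked, because the other mice of its group were spread as well. Without day 5 mouse 5 C1qa fell by 2.08 and C1qb fell by 2.23 on the log2 scale from day 2 to day 5 (limma, adjusted p = 2.49e-05 and 4.24e-05).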

How the results depend on the processing

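All 7 rises on day 2, all 7 falls from day 2 to day 5 and the rise of Siglec1 from day 1 to day 2 kept their direction and their call in every alternative in which the gene could be tested, of 35 run. Of 1195 repeated values of the 7 genes, 1173 stayed on their side of the threshold, 1 lost its call (Fcna on day 1 without day 1 mouse 4), 21 gained one and none that was called changed sign. The uncalled day 2 to day 1 difference of C1qb changed sign in 7 settings. With only genes measured in all 5 mice of each group, 4 of the 7 could be tested, of which 2 were called on day 1, 4 on day 2 and 4 from day 2 to day 5. On day 5 against control the 7 genes gave 1 call with all 40 arrays and the mouse as a random block, 1 with only the 2 groups in the fit, 3 with array weights and, as chosen after seeing the data, 2 without control mouse 4 and day 2 mouse 5 together. The last setting gave 2 calls, in place of 1, for day 2 against day 1. Over all genes, the 139 calls of day 5 against control became 210 with 40 arrays, 222 with scale normalization and 339 with array weights, and the 111 calls of day 2 against day 1 became 241 with 40 arrays, 70 with scale normalization, 65 with only 2 groups and 187 with array weights. The 1012 calls of day 1 became 1591 with array weights. Leaving out each mouse in turn gave 611 to 1313 calls on day 1, 592 to 1123 on day 2 (in place of 1018), 100 to 161 on day 5, 77 to 167 for day 2 against day 1 and 816 to 1211 for day 5 against day 2 (in place of 1102). The counts moved by over 1.5 times without day 1 mouse 3 (611), day 1 mouse 2 (641), day 2 mouse 1 (592) and day 5 mouse 4 (167). The 7 genes gave 3 to 5, 6 to 7, 0 to 1, 1 to 2 and 6 to 7 calls in these comparisons, with 6 where C1qa could not be tested, and 1 on day 5 and 2 for day 2 against day 1 without day 2 mouse 5. Same-numbered mice of different groups correlated between -0.39 and 0.33, with 8 of 30 values over 0.1. Of these, days 2 and 5 gave 0.33, 0.23, 0.10 and 0.16, control and day 1 gave 0.17, 0.21 and 0.25, and days 1 and 2 gave 0.29. For 8 of 20 mice the closest number was their own, a count that was not set against chance. The labels give the numbers no shared source, so the mice were not treated as paired. The correlations do not decide whether they were. With the replicate block the calls over all genes were 998, 992, 134, 109 and 1062, and those of the 7 genes 4, 7, 0, 1 and 7. For other named genes, 172 of 6731 repeated values lost a call, 85 gained one and none reversed. The cause of these shifts was not tested.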
